A study of Mus musculus with 24 samples.

Results

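The 46 genes described here encode the translation initiation and elongation factors of mouse macrophages, the proteins that load ribosomes onto mRNA and move them along it. They were taken by gene symbol from a list of names and form 46 of the 23337 genes in the deposited count tables. All 46 had footprint counts, as had 12660 genes of the whole tables. They fall into 6 elongation factors (Eef1a1, Eef1b2, Eef1d, Eef1g, Eef2 and its kinase Eef2k), 3 genes of the eIF1 group (Eif1, Eif1a, Eif1ax), 3 subunits of eIF2 (Eif2s1, Eif2s2, Eif2s3x), 5 subunits of eIF2B (Eif2b1 to Eif2b5), 12 subunits of eIF3 (Eif3a to Eif3i, Eif3k, Eif3l, Eif3m), 11 genes of the eIF4 group (Eif4a1, Eif4a2, Eif4a3, Eif4b, Eif4e, Eif4ebp1, Eif4ebp2, Eif4g1, Eif4g2, Eif4g3, Eif4h), 4 genes of eIF5 and eIF6 (Eif5, Eif5a, Eif5b, Eif6) and 2 poly(A)-binding proteins (Pabpc1, Pabpc4). The names were matched to 16 chromosomes. None of the 46 genes lies on chromosome 6, which carries Apobec1, and Eif1ax and Eif2s3x lie on the X chromosome.

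The study asked how functional APOBEC1, an enzyme that changes cytidine to uridine in RNA, affects translation. Macrophages were grown from bone marrow of C57BL/6J mice aged 6 to 12 weeks, either Apobec1 -/- (KO) or wildtype (WT), that were littermates or matched in age. The marrow cells were kept for 7 days in M-CSF at 20 ng/mL, which turns marrow precursors into macrophages, and every 3 days part of the medium was replaced with medium holding 40 ng/mL. Ribosome-protected fragments (footprints, the stretches of mRNA covered by ribosomes) and total RNA were sequenced from each of 12 cultures, which gives 24 libraries. Both genotypes received the same medium and no further agent. The labels place the cultures in 3 batches. In batch 1 were 1 knockout (KO1) and 3 wildtype cultures (WT1, WT2, WT3), in batch 2 were 3 knockouts (KO2, KO3, KO4) with WT4 as the only wildtype, and batch 3 was balanced, with KO5 and KO6 beside WT5 and WT6. Values for single cultures are given below in that order. Whether the cultures are of separate animals is not in the labels. P-values therefore measure the spread between these cultures, which may be technical.

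Translation begins when eIF2, carrying GTP and the initiator tRNA, joins the small ribosomal subunit together with eIF1, eIF1A, eIF3 and eIF5. eIF2B reloads eIF2 with GTP after each round, and stress kinases slow translation by phosphorylating eIF2 so that it blocks eIF2B. The eIF4 group brings the capped end of the mRNA to the ribosome: eIF4E binds the cap, eIF4G is the scaffold, eIF4A unwinds the leader, and the 4E-binding proteins hold eIF4E back until the kinase mTOR releases it. eIF5B joins the large subunit, eEF1A then delivers each aminoacyl-tRNA, eEF1B recharges eEF1A, and eEF2 moves the ribosome by a codon at a time. Several of these mRNAs, those of most elongation factors, Eif3e, Eif3f, Eif3h, Eif4b and Pabpc1 among them, are known as TOP mRNAs: they start with a cytidine followed by an oligopyrimidine tract, and mTOR and LARP1 control whether they are translated or stored. In macrophages, mTOR and eIF2 control set how much cytokine and housekeeping protein is made from existing mRNA.

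The bases around the annotated starts of the genes on which the results turn are shown because the group of TOP mRNAs is named after them. Each line gives 10 bases before the RefSeq start and 20 from it on, 5′ to 3′ on the strand of the gene, in GRCm38.p6, and the capitals mark the longest unbroken run of C and T in that window. The positions are chr9:78481705-78481734 (minus strand) for Eef1a1, chr10:81176621-81176650 (plus) for Eef2, chr1:63176821-63176850 (plus) for Eef1b2, chr15:102073763-102073792 (plus) for Eif4b, chr7:108934405-108934434 (plus) for Eif3f, chr7:126566347-126566376 (minus) for Eif3c, chr1:37998000-37998029 (plus) for Eif5b, chrX:94212632-94212661 (minus) for Eif2s3x and chrY:1010585-1010614 (plus) for Eif2s3y.
Eef1a1: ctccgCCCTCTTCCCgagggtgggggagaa
Eef2: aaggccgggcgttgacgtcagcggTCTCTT
Eef1b2: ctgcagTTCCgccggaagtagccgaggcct
Eif4b: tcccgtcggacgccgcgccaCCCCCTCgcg
Eif3f: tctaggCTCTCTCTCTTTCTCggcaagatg
Eif3c: ctgCTCagagggactcggcagcttagctgg
Eif5b: ctgggTTCCCacctggccggcggctctact
Eif2s3x: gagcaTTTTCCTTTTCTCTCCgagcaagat
Eif2s3y: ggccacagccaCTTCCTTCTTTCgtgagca

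The run is 10 bases long in Eef1a1, 15 in Eif3f, 16 in Eif2s3x and 12 in Eif2s3y, and 7 or shorter in the windows of Eif4b, Eef2, Eef1b2, Eif3c and Eif5b. A run of at least 8 bases that are each C or T, searched on the strand of the gene, was found in 7 of the 35 factors with a RefSeq entry (20%), against 13.0% of the 27025 genes with one. Among the TOP mRNAs it was found in 2 of 5 with an entry (40%), and among the other factors in 5 of 30 (16.7%). A C at the annotated start followed by 4 pyrimidines, the stricter form that TOP mRNAs are known for, was found in 1 of the 5 TOP mRNAs, in 2 of all 35 factors (5.71%) and in 3.01% of all genes. The 7 with a run were Eef1a1, Eif3f, Eif2s3x, Eif2b5, Eif3l, Eif2b2 and Eif4e. A match describes these letters only: an annotated start need not be the start used in macrophages, and a window without a run says nothing about the mRNA.

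Counts in genes ran from 5077478 to 12059361 per total RNA library and from 29561 to 3714912 per footprint library, so the precision of a footprint value differs widely between cultures. The median footprint count of the 46 genes was 4 in WT6 and 13 in KO6, against 33 to 498 in the other 10 cultures. In WT6, 8 of the 46 had no footprint count (Eef2k, Eif1ax, Eif2b1, Eif2b3, Eif2b5, Eif4a2, Eif4ebp2 and Pabpc4) and 14 had fewer than 3, and KO6 had none for Pabpc4. With 3 counts as the limit that a count of 0 allows, these are values up to 80.4 CPM in WT6 and 31.8 CPM in KO6. CPM are counts per 1000000 counts in genes, scaled between libraries. Reads were counted without molecular identifiers, so the limit covers counting error only. In all 12 cultures Apobec1 stood on the side of its label: its footprints were 0 to 24.4 CPM in KO and 59.6 to 102 CPM in WT, while its total RNA was 604 to 1276 CPM in KO and 313 to 474 CPM in WT. None of the 9 macrophage markers was at 0, with a summed total RNA level of 15356 to 32115 CPM in KO and 16874 to 49203 CPM in WT.

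The first comparison asks which factors carry more or fewer footprints than their RNA would give for the average gene. The ratio is footprint CPM over total RNA CPM, each scaled to its own libraries, and a value of 1 is the average gene by that scaling. Footprints were counted in coding sequence and total RNA over a region that is not stated, so the ratio is firmer between cultures for 1 gene than between genes. The counter also set apart reads without a unique alignment, 45.6% to 80.1% of footprint files and 27.8% to 51.2% of total RNA files. Genes that share sequence with others may have lost footprints and RNA reads unequally in this way, which was not tested. Elongation factors and poly(A)-binding proteins were mostly low, and eIF3, eIF5B, eIF1 and eIF4A1 high. By edgeR's quasi-likelihood test, 37 of the 46 factors differed from 1, 20 higher and 17 lower. The background was high: 67% of the 10747 genes tested differed, 24.7% higher and 42.4% lower. The median log2 ratio was 0.09 for the 46 factors and -0.24 for all genes tested, and 28 of the 46 stood above that all-gene median.

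Of the 6 elongation factors 5 were lower and 1 was higher. Eef1a1, which delivers aminoacyl-tRNA (chromosome 9, 78478453 to 78481724, mm10), had ratios of 0.337, 0.356, 0.344 and 0.384 in batch 1, 0.333, 0.270, 0.314 and 0.319 in batch 2, and 0.939, 0.649, 0.406 and 0.576 in batch 3. All 12 values lay under 1, the highest 2 of them in KO5 and KO6. On average the ratio was 2.45-fold lower than that of the average gene (log2 -1.29, SE 0.08, adjusted p = 4.11e-15, edgeR).

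Eef1b2, the exchange factor that reloads eEF1A, was 2.72-fold lower (log2 -1.44, SE 0.09, adjusted p = 1.88e-14, edgeR) with ratios from 0.211 in WT2 to 0.754 in KO5. Eef2, the translocase (chromosome 10, 81176631 to 81182509), had a log2 ratio of -0.94 (SE 0.08, adjusted p = 9.6e-12, edgeR). Eef1g, a structural subunit of eEF1B, stood at -0.60 (SE 0.09, adjusted p = 3.47e-07, edgeR). Eef2k, the kinase that inactivates eEF2 and whose mRNA is not a TOP mRNA, stood at -0.61 (SE 0.21, adjusted p = 0.0128, edgeR), a call that was lost without KO5 (-0.50, adjusted p = 0.0717, edgeR). The exception was Eef1d, the other exchange subunit of eEF1B. Its ratio was 1.02 to 1.96 in 11 cultures and 0.921 in WT5, above the all-gene median in each of the 12, with a log2 of 0.43 (SE 0.09, adjusted p = 1.91e-04, edgeR). Over the 4 cultures with at least 1000000 footprint counts it was 0.23 (adjusted p = 0.0619, edgeR).

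eIF3, the large scaffold of the small ribosomal subunit, was mostly high: 7 of its 12 subunits were higher, 1 was lower and 4 were not called, with a median log2 ratio of 0.40. Eif3c, a core subunit (chromosome 7, 126546911 to 126566366), had ratios of 1.95, 2.07, 2.26 and 2.01 in batch 1, 2.46, 2.45, 2.35 and 2.18 in batch 2, and 2.30, 2.62, 2.44 and 2.25 in batch 3. These 12 values varied little, and each was near or above 2 (log2 1.18, SE 0.06, adjusted p = 4.61e-17, edgeR). Eif3a, Eif3b, Eif3c, Eif3d, Eif3g and Eif3l lay above the all-gene median in all 12 cultures. The subunit with the lowest ratio was Eif3f (log2 -0.34, SE 0.10, adjusted p = 0.00256, edgeR), whose window above has the run of 15 pyrimidines. Eif3e and Eif3h, the other eIF3 subunits among the TOP mRNAs, were not called (0.03 and -0.07).

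eIF2, the carrier of the initiator tRNA, was split. Eif2s1, the subunit that stress kinases phosphorylate, and Eif2s2 were higher at log2 ratios of 0.43 (SE 0.09, adjusted p = 6.17e-05, edgeR) and 0.50 (SE 0.09, adjusted p = 5.7e-06, edgeR). Eif2s3x, the GTP-binding subunit on the X chromosome (94188709 to 94212651), was lower at -0.61 (SE 0.09, adjusted p = 7.74e-07, edgeR). Its ratios were 0.718, 0.679, 0.270 and 0.566 in batch 1, 0.701, 0.657, 0.873 and 0.825 in batch 2, and 0.602, 0.621, 0.658 and 0.315 in batch 3, all under 1. Eif2s3y, its copy on the Y chromosome, had a ratio of 1.05 to 1.67 in the 8 cultures where it had counts. The 2 copies are near-identical, and the counter set apart reads without a unique alignment, so the split between them is uncertain. In total RNA of batch 3, Eif2s3y had 0 counts beside 1717 to 2063 counts of Eif2s3x. Reads of the X copy were thus not counted to the Y copy there. Of the eIF2B subunits, Eif2b3 was the highest (1.32, SE 0.17, adjusted p = 7.65e-08, edgeR) and Eif2b5, the catalytic subunit, the lowest (-0.45, SE 0.11, adjusted p = 4.18e-04, edgeR); 3 of the 5 were higher, 1 was lower and 1 was not called.

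The eIF4 group was the most mixed, with 3 genes higher, 5 lower and 3 not called. Eif4a1, the helicase of the cap complex, was higher (0.85, SE 0.07, adjusted p = 1.59e-12, edgeR), with a ratio of 1.31 in the lowest culture, WT5. Its near-identical paralog Eif4a2 was lower (-0.71), and reads shared by the pair make both values uncertain. Eif4b, which stimulates the helicase (chromosome 15, 102073773 to 102097173), was low in every culture: its ratios were 0.426, 0.297, 0.389 and 0.365 in batch 1, 0.359, 0.292, 0.349 and 0.304 in batch 2, and 0.546, 0.321, 0.279 and 0.169 in batch 3 (log2 -1.52, SE 0.08, adjusted p = 4.07e-17, edgeR). The lowest of the group was Eif4ebp2, a 4E-binding protein (-1.53, SE 0.24, adjusted p = 1.77e-06, edgeR), at low footprint depth. The scaffold Eif4g1 was higher (0.27) and Eif4g2, a related protein that does not bind eIF4E, lower (-0.98, SE 0.08); the cap-binding protein Eif4e itself, at 0.23, just missed the threshold (adjusted p = 0.0547, edgeR).

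Among the late initiation factors, Eif5b, the GTPase that joins the subunits (chromosome 1, 37998010 to 38055579), had the highest log2 ratio of all 46 factors (1.40, SE 0.10, adjusted p = 5.24e-14, edgeR). It was 2.77, 2.57, 2.41 and 2.80 in batch 1, 2.84, 3.50, 3.15 and 3.98 in batch 2, and 2.32, 1.89, 2.05 and 2.92 in batch 3. Eif5a, which helps ribosomes past proline stretches, was also higher (1.03, SE 0.07, adjusted p = 6.5e-14, edgeR), while Eif5, the GTPase-activating partner of eIF2, was lower (-0.69, SE 0.08, adjusted p = 3.95e-09, edgeR). Eif1, which guards start codon choice, was higher (1.13, SE 0.10, adjusted p = 2.36e-11, edgeR) and Eif1a lower (-1.62, SE 0.12, adjusted p = 1.23e-13, edgeR), the latter a near-identical copy of Eif1ax (0.06, not called). Both poly(A)-binding proteins were lower. Pabpc1 (chromosome 15, 36595658 to 36609581) had the lowest log2 ratio of the 46, 3.32-fold under the average gene (-1.73, SE 0.12, adjusted p = 2.8e-13, edgeR), and ranged from 0.172 in KO6 to 0.463 in KO5. Pabpc4 stood at -1.67 (SE 0.28, adjusted p = 4.07e-06, edgeR), with footprint counts too few for the separate footprint test.

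**Figure D1:**
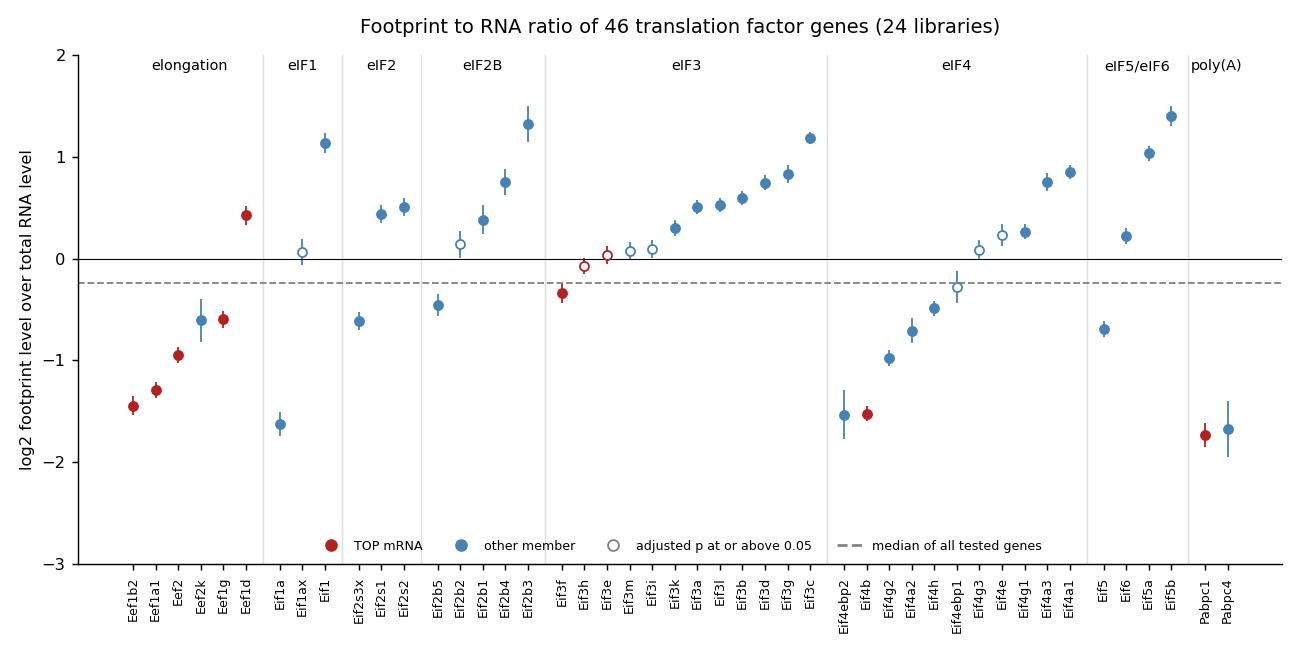
Log2 footprint to total RNA ratio of the 46 factors (vertical axis), ordered by role group along the horizontal axis, as the edgeR estimate with its standard error; the horizontal lines mark the average gene and the median of all genes tested. Elongation factors except Eef1d and both poly(A)-binding proteins lie under 0, and 7 of 12 eIF3 subunits were called above it.

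Grouped by leader type, 7 of the 10 TOP mRNAs were lower, 1 was higher (Eef1d) and 2 were not called, with a median log2 ratio of -0.77. Of the other 36 factors 19 were higher and 10 lower, with a median of 0.25. The TOP list is textbook knowledge and was used with an earlier result of these data in view, so its counts are a description.

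In single cultures some pairs of groups kept their order and others did not. The median ratio of the elongation factors was 0.597, 0.600, 0.487 and 0.613 in batch 1, 0.436, 0.405, 0.399 and 0.370 in batch 2, and 1.03, 0.735, 0.586 and 0.455 in batch 3. The median of eIF3 was 1.37, 1.29, 1.34 and 1.24, then 1.40, 1.18, 1.20 and 1.33, then 1.68, 1.63, 1.16 and 0.999. Elongation factors stood under eIF3 in 12 of 12 cultures, and likewise under eIF2, eIF4 and the eIF5 and eIF6 group. They stood under eIF2B in 10 of 12, the exceptions being KO5 and WT6. The eIF4 median, 0.577 to 1.22, lay under that of eIF3 in 12 of 12. eIF2 had no fixed place: its median lay above that of eIF3 in the 4 cultures of batch 2 and in WT6 and under it in the others. The eIF2B median ran from 0 in WT6 to 3.31 in KO6.

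Measured against the median gene of the same culture, elongation factors were low in 9 of 12 cultures and the TOP mRNAs in 10 of 12. The 3 cultures in which elongation factors were not low were KO5, KO6 and WT6, all of batch 3. In WT6, with 29561 footprint counts, the median over all genes tested was itself 0.293, against 0.721 to 0.871 in the other 11 cultures. The eIF3 median was above the median gene in all 12.

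**Figure D2:**
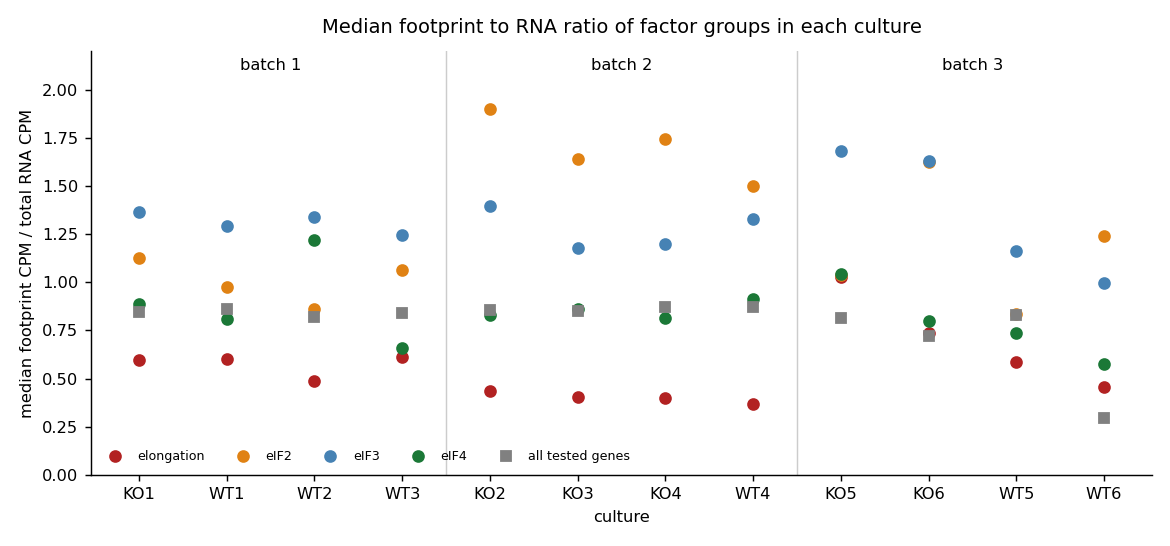
Median footprint to total RNA ratio of the elongation factors, eIF2, eIF3 and eIF4 groups and of all genes tested (vertical axis) in each of the 12 cultures, ordered by batch (horizontal axis). Elongation factors lie under eIF3 in every culture, between 0.370 in WT4 and 1.03 in KO5, and eIF2 is on average highest in batch 2, with 1.70 against 1.01 and 1.18.

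The group medians also differed between batches. Elongation factors had 0.574 ± 0.0586 in batch 1, 0.403 ± 0.0269 in batch 2 and 0.701 ± 0.246 in batch 3 (mean ± SD of the culture medians, n = 4 each). The 4 batch 2 values all lay under the 4 of batch 1, while batch 3 lay above all of batch 2 and overlapped with batch 1. eIF2 had 1.01 ± 0.115, 1.70 ± 0.169 and 1.18 ± 0.337 (SD, n = 4 each), and its 4 batch 2 values lay above all of batch 1. eIF3 had 1.31 ± 0.0531, 1.27 ± 0.106 and 1.37 ± 0.338 (SD, n = 4 each), with overlapping values, and eIF4 had 0.894 ± 0.236, 0.855 ± 0.0433 and 0.789 ± 0.192 (SD, n = 4 each).

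The second comparison, the question of the study, is between genotypes with batch in the model. No factor was called in total RNA, footprints or their ratio. In total RNA 0 of 46 passed edgeR's test (smallest adjusted p = 0.859) and 0 had an unadjusted p under 0.05, against 0.0183% of all genes called and 4.68% with such an unadjusted p. In footprints 0 of 44 passed (smallest adjusted p = 0.531, edgeR) and 1, Eif4ebp1, had an unadjusted p under 0.05, against 0.0832% and 8.52% of all genes. In the ratio 0 of 46 passed (adjusted p = 1, edgeR) and 1, Eif4b, had an unadjusted p under 0.05, against 0.0093% and 3.04% of all genes. DESeq2 and limma voom called 0 factors in each of the 3. Changes of the 46 ran from -0.23 to 0.25 (log2, KO over WT) in total RNA, from -0.60 to 0.46 in footprints and from -0.41 to 0.45 in the ratio, and the median standard errors were 0.0945, 0.158 and 0.183. These errors set the size of change that could be seen; a p above the threshold does not show that the factors were alike in both genotypes.

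Eif4ebp1, a 4E-binding protein that holds eIF4E back until mTOR releases it (chromosome 8, 27260327 to 27275656), had the smallest p in footprints. KO1 to KO6 had 17.9, 16.3, 18.8, 11.2, 22.8 and 21.2 CPM and WT1 to WT6 had 16.8, 29.1, 12.3, 25.8, 36.7 and 26.8 CPM. The genotypes overlapped, the KO mean being 18.0 ± 4.05 CPM and the WT mean 24.6 ± 8.76 CPM (SD, n = 6 each). The fitted change was -0.60 (SE 0.27, unadjusted p = 0.0319, adjusted p = 0.531, edgeR), and the difference within batches 1, 2 and 3 was -0.03, -0.73 and -0.49. Only over the 4 cultures with at least 1000000 footprint counts (WT1, KO2, KO4, WT4, a fit with 1 residual degree of freedom) was it called (-0.91, adjusted p = 0.0112, edgeR), in a fit that called 14.5% of all genes.

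Eif4b had the smallest p in the ratio. Its ratios were 0.426, 0.359, 0.292, 0.349, 0.546 and 0.321 in KO1 to KO6 and 0.297, 0.389, 0.365, 0.304, 0.279 and 0.169 in WT1 to WT6. KO values reached higher and WT values lower, but 4 of the KO values fell inside the WT range, with 0.382 ± 0.0917 in KO and 0.300 ± 0.0773 in WT (SD, n = 6 each). The fitted change was 0.38 (SE 0.16, unadjusted p = 0.0265, adjusted p = 1, edgeR). Its footprints differed within batches 1, 2 and 3 by 0.32, 0.15 and 0.66 and its total RNA by 0.03, 0.02 and -0.28.

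By group, changes between genotypes were small and mostly without a shared sign. In total RNA 11 of 12 eIF3 subunits were fitted below 0, with a median of -0.05, where 49.5% of all genes were above 0. In footprints 6 of 12 were fitted below 0. The 6 elongation factors were all fitted above 0 in footprints and in the ratio (medians 0.08 and 0.22), where 52.4% and 50.3% of all genes were above 0, and none of the 6 was called. Within batches the sign was not shared: in footprints KO was above WT for 4 of the 6 in batch 1, for 1 of the 6 in batch 2 (Eef2k) and for all 6 in batch 3, with medians of 0.06, -0.21 and 0.67, and in batch 3 the KO cultures include KO5, whose elongation factor ratio was the highest of the 12. KO cultures had an elongation factor ratio of 0.600 ± 0.248 and WT cultures 0.518 ± 0.0970 (SD, n = 6 each), with KO values from 0.399 to 1.03 around all but 1 of the WT values. eIF2 had 1.51 ± 0.349 in KO and 1.08 ± 0.254 in WT (SD, n = 6 each). Within batches 1, 2 and 3 the KO means were 1.13, 1.76 and 1.33 and the WT means 0.965, 1.50 and 1.04. KO was thus above WT in each batch, and batch 2 was the highest in both genotypes. Batch 2 holds 3 of the 6 KO and 1 of the 6 WT cultures, and no eIF2 subunit was called. Within all 3 batches KO was above WT in total RNA for Eif2b4, Eif4a3 and Eif5b and under it for 7 factors (Eef1g, Eif2b3, Eif2b5, Eif3f, Eif3g, Eif3h and Eif4a2); none of these was called in the fit over all 12 cultures. In footprints KO was above WT within all 3 batches for 6 factors (Eef2k, Eif2b5, Eif2s1, Eif3a, Eif4b and Eif5b) and under it for 4 (Eif3g, Eif4ebp1, Eif4g2 and Eif5a). The share of all genes with the same sign in 3 batches was not computed, so these counts are a description. Batch 1 has 1 KO culture and batch 2 has 1 WT culture. The batch 3 differences of Eef2k (2.16) and Eif2b5 (3.31) include WT6, where both had 0 footprint counts. Over the 4 cultures with at least 1000000 footprint counts, Eif5b total RNA was called (0.58, adjusted p = 4.96e-05, edgeR), in a fit that called 24.8% of all genes.

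In the authors' deposited table over all genes, 0 of the 46 factors had an adjusted p under 0.05 (smallest adjusted p = 1) and 2, Eif2s1 and Eif2s2, had an unadjusted p under 0.05 (0.041 and 0.0498). In the authors' deposited table over a top 25 percent of genes, 40 of the factors had an adjusted p, the smallest 0.613.

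**Figure D3:**
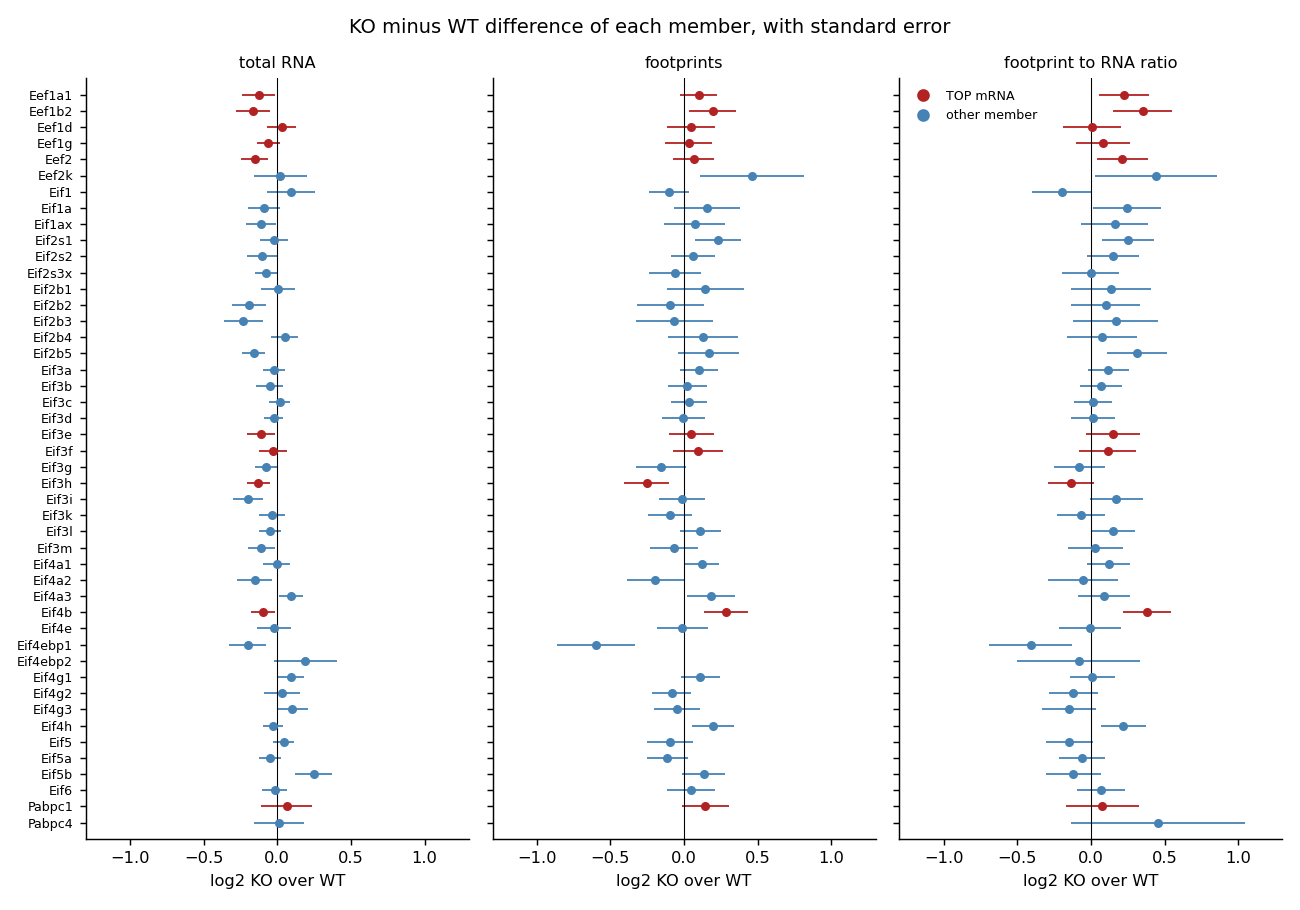
Log2 change between genotypes (KO over WT) of each factor in total RNA, footprints and the footprint to RNA ratio, with its standard error from the edgeR fit with batch. All values lie between -0.60 and 0.46, and none passed the adjusted threshold.

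The third comparison is between the batches, averaged over genotype. Batch changed the factors far more than genotype did, as it did for genes in general. In total RNA, 10 of the 46 factors differed between batches 2 and 1, 5 higher and 5 lower in batch 2 (of all genes 23.5% did, 12.7% higher and 10.8% lower). Between batches 3 and 1 there were 18, 14 higher and 4 lower (of all genes 45.3%, 23% and 22.3%), and between batches 3 and 2 there were 22, 16 higher and 6 lower (49.2%, 24.7% and 24.5%). In footprints 8 of 44 differed between batches 2 and 1, 3 higher and 5 lower (of all genes 15.4%, 8% and 7.37%). Between batches 3 and 1 there were 13, 9 higher and 4 lower (20.8%, 9.54% and 11.2%), and between batches 3 and 2 there were 17, 13 higher and 4 lower (22.5%, 10.9% and 11.7%). The background percentages show that the factors as a set were called about as often as other genes in total RNA, and in footprints between batch 3 and either other batch their share was above that of other genes. The 3 contrasts share cultures, so they are not independent of each other. In bulk cultures, fewer cells of a type and less RNA per cell cannot be told apart.

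Cultures of the 3 batches also differed in other measured ways, whose part in the results below was not tested. The summed total RNA of 9 macrophage markers was 21977 to 29193 CPM in batch 1, 27814 to 49203 in batch 2 and 15356 to 25229 in batch 3. Lyz2 made up most of that sum: 7 of the 9 markers (Csf1r, Emr1, Itgam, Mertk, Fcgr1, Cd14 and Mrc1) were lower in every batch 3 culture than in any other. The share of all genes that are lower without overlap was not computed. By edgeR's test 22.3% and 24.5% of all genes were called lower in batch 3 than in batches 1 and 2. Csf1r, the M-CSF receptor, had 951 to 1274 CPM in batch 3 and 2690 to 4218 CPM elsewhere, and Mertk, which takes up dead cells, had 4.53 to 6.35 and 35.0 to 58.4 CPM. The summed level of 12 neutrophil markers was 65.2 to 79.4, 164 to 611 and 427 to 576 CPM, with Ngp at 0 in batch 1. The highest batch 2 sum was that of WT4, where Mmp8 had 227 CPM. Single markers of this list differed in direction. S100a8 had at most 1.19 CPM in batch 1, 11.2 to 64.2 in batch 2 and 101 to 146 in batch 3. Csf3r, however, had 14.1 to 25.9 CPM in batch 3 and 41.7 to 118 CPM elsewhere, and Mmp9 had 1.19 to 3.42 and 4.66 to 23.7 CPM. That of 4 mast cell markers was 6.68 to 12.6, 1.98 to 3.65 and 39.9 to 68.8 CPM, nearly all of it Kit, with Mcpt4 at 0 in every batch. Lymphocyte, erythroid and stromal markers summed to at most 8.27, 0.302 and 1.45 CPM. Footprint depth was lowest in batch 3, at 29561 to 223504 counts. Kdm5d, a gene of the Y chromosome, had 25.6 to 37.0 CPM in batches 1 and 2 and 0 in batch 3, while Xist, the RNA that silences an X chromosome in females, had at most 0.909 CPM in batches 1 and 2 and 26.0 to 51.1 CPM in batch 3.

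The clearest batch difference among the eIF2 subunits was in Eif2s3x and its Y copy. Total RNA of Eif2s3x was 143, 141, 156 and 154 CPM in batch 1, 140, 151, 127 and 157 CPM in batch 2, and 287, 273, 306 and 255 CPM in batch 3. All 4 cultures of batch 3 lay above the other 8, with no overlap. The log2 change was 0.94 against batch 1 (SE 0.09, adjusted p = 3.98e-06, edgeR) and 0.95 against batch 2 (SE 0.09, adjusted p = 3.23e-06, edgeR), and both calls held in all 17 alternatives run for them.

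Eif2s3y (chromosome Y, 1010562 to 1049134) had 61.7, 58.0, 74.0 and 63.6 CPM in batch 1, 47.3, 47.6, 42.9 and 43.7 CPM in batch 2, and 0 in each culture of batch 3. There 3 counts would be 0.422 to 0.474 CPM before the scaling between libraries. Added together, the X and Y copies had 201 ± 18.0 CPM in batches 1 and 2 (SD, n = 8; 170 to 230) and 280 ± 21.6 CPM in batch 3 (SD, n = 4; 255 to 306). The sum in batch 3 was thus still above every culture of the other batches, by less than Eif2s3x alone.

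In footprints Eif2s3x had 102, 96.0, 42.0 and 87.3 CPM in batch 1, 98.0, 99.2, 111 and 129 CPM in batch 2, and 173, 170, 202 and 80.4 CPM in batch 3, the last from 3 counts in WT6. In batch 3, 3 of the 4 cultures were above all others. The change was 1.02 against batch 1 (SE 0.24, adjusted p = 0.002, edgeR; without WT5 adjusted p = 0.0544) and 0.65 against batch 2 (SE 0.22, adjusted p = 0.032, edgeR), the latter lost without KO2, KO5, KO6 or WT5 (0.61, 0.63, 0.64 and 0.51, adjusted p = 0.0645, 0.141, 0.0746 and 0.205) and with no filter on low counts (0.54, adjusted p = 0.0608). Footprints of Eif2s3y were 62.6 to 87.3 CPM in batches 1 and 2 and 0 in batch 3. The sum of both copies in footprints was 153 ± 16.7, 179 ± 15.2 and 156 ± 52.5 CPM in batches 1, 2 and 3 (SD, n = 4 each), with overlapping values. Eif1ax, the other factor on the X chromosome, was also higher in total RNA of batch 3: it had 53.9, 48.9, 54.0 and 57.4 CPM, then 41.6, 45.2, 37.7 and 46.6 CPM, then 83.7, 67.1, 97.1 and 71.1 CPM (0.87 against batch 2, SE 0.12, adjusted p = 7.24e-05, edgeR). Its footprints were not called in either contrast.

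**Figure D4:**
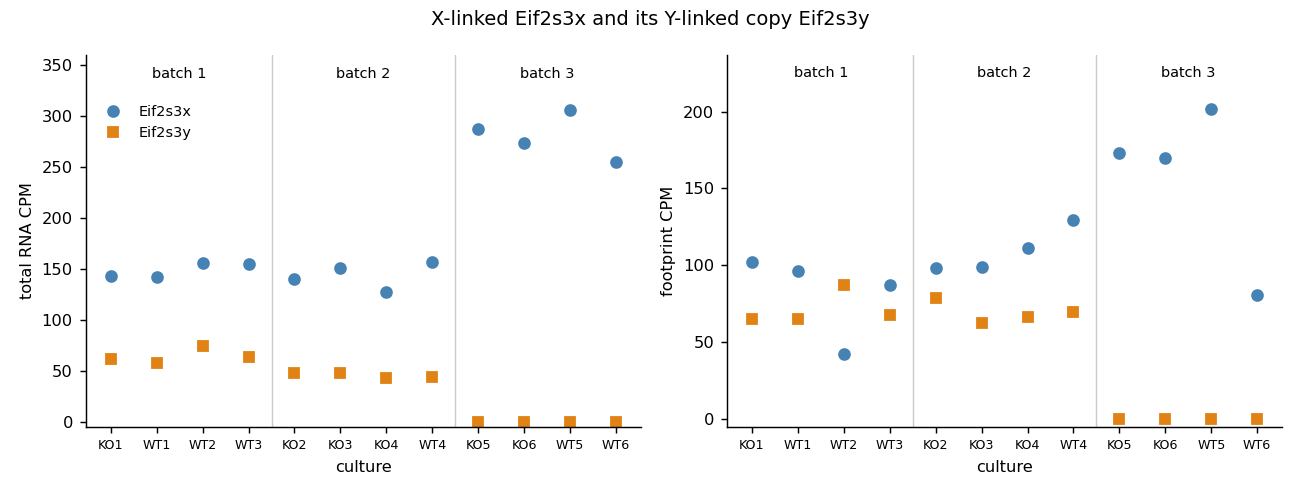
Total RNA and footprint levels (CPM, vertical axes) of Eif2s3x and Eif2s3y in each of the 12 cultures, ordered by batch. Eif2s3y is at 0 in the 4 batch 3 cultures, where total RNA of Eif2s3x is 255 to 306 CPM against 127 to 157 CPM elsewhere.

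The other eIF2 subunits rose as well in total RNA between batches 2 and 3, so that 3 of 3 were higher. Eif2s2 in footprints was higher in batch 2 than in batch 1 (0.64, SE 0.17, adjusted p = 0.00732, edgeR), and so was its ratio (0.76, adjusted p = 0.0145, edgeR). Without WT4 neither was called (0.30, adjusted p = 0.399 for the footprints, and 0.57, adjusted p = 0.191 for the ratio, edgeR). The ratio call was also lost without KO1 (0.77, adjusted p = 0.0793), without WT2 (0.70, adjusted p = 0.0508) and over the 4 cultures with at least 1000000 footprint counts (0.64, adjusted p = 0.0882).

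Elongation factors were mostly higher in footprints of batch 3 than of batch 2. In total RNA 4 of the 6 differed, 3 higher and 1 lower, and in the ratio 2 did, Eef1a1 and Eef2, both higher. In footprints 5 of the 6 were higher in batch 3 (Eef1a1, Eef1b2, Eef1d, Eef1g and Eef2), with a median of 0.93 over the 6 against -0.04 over all genes, and 10.9% of all genes were called higher. Eef1a1 footprints were 2402, 2246, 2460 and 2703 CPM in batch 1, 2011, 1928, 1975 and 2235 CPM in batch 2, and 5049, 3646, 3134 and 3241 CPM in batch 3. Every batch 3 culture was above the other 8, and KO5 was the highest (0.91 against batch 2, SE 0.14, adjusted p = 1.68e-05, edgeR). Its total RNA was 7118, 6312, 7145 and 7040 CPM, then 6031, 7142, 6285 and 6996 CPM, then 5376, 5620, 7718 and 5631 CPM, with batches 3 and 2 overlapping (-0.16, SE 0.13, adjusted p = 0.334, edgeR). The ratio was higher in batch 3 (0.96, SE 0.20, adjusted p = 0.00328, edgeR), a call that was lost without KO5 (0.68, adjusted p = 0.0583, edgeR).

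Eef2 moved in both directions. Its footprints were 1168, 1195, 1371 and 1212 CPM in batch 1, 815, 799, 913 and 1066 CPM in batch 2, and 2008, 1770, 1333 and 1045 CPM in batch 3, while its total RNA was 2204, 2099, 2062 and 2182 CPM, then 2437, 2775, 2524 and 3084 CPM, then 1799, 2175, 2414 and 2260 CPM. Batch 2 had the most Eef2 RNA and, on average, the fewest Eef2 footprints, and WT6 was the one batch 3 culture whose footprints fell within the batch 2 range. Between batches 2 and 1 its RNA was higher (0.41, SE 0.11, adjusted p = 0.0191, edgeR) and its footprints lower (-0.49, SE 0.16, adjusted p = 0.0386, edgeR). Its ratio was lower in batch 2 than in batch 1 (-0.88, SE 0.21, adjusted p = 0.00687, edgeR) and higher in batch 3 than in batch 2 (1.07, SE 0.20, adjusted p = 0.00162, edgeR), and these 2 calls held in all 19 and 18 alternatives run for them.

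The remaining elongation factors had footprint changes between batches 3 and 2 of 0.94 in Eef1b2 (SE 0.20, adjusted p = 5.31e-04, edgeR), 0.95 in Eef1d (SE 0.20, adjusted p = 6.9e-04, edgeR; without KO5 adjusted p = 0.0545) and 0.78 in Eef1g (SE 0.19, adjusted p = 0.00244, edgeR). Eef1g footprints were 501, 265, 321 and 161 CPM in batch 3, against 186 to 239 CPM in batch 2. The last of these, WT6 with 6 counts, lay under every batch 2 culture. Against batch 1 the Eef1g call (0.89) was lost without KO5 (0.56, adjusted p = 0.0586, edgeR). Eef2k was not called (1.16, SE 0.60, adjusted p = 0.165, edgeR). None of these 4 had a ratio past the threshold between batches 3 and 2.

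In the ratio, 5 of the 46 factors differed between batches 2 and 1, 3 higher and 2 lower (of all genes 10.3% did, 5.32% higher and 4.95% lower). Between batches 3 and 1 only Eif3a did, and it was lower (of all genes 0.605%, 0.298% higher and 0.307% lower); this call was lost in 12 of 18 alternatives. Between batches 3 and 2 there were 8, 5 higher and 3 lower (6.06%, 2.05% and 4.01%). With the culture as a block, which pairs the footprint and RNA library of each culture, the counts were 12, 3 and 15, and the shares of all genes called were 22.1%, 1.97% and 11.5%. Of the 8, Eef1a1, Eef2, Eif6, Eif2b4 and Eif3k were higher in batch 3 and Eif3a, Eif5a and Eif5b were lower. The call of Eif5b was lost in 11 of 18 alternatives, DESeq2, voom and RLE among them, that of Eif2b4 in 9 of 18 and that of Eif3k in 3 of 18 (no filter, without KO5 and without KO6). Scaling by RLE in place of TMM gave 9, of which 8 were higher and 1 was lower, DESeq2 gave 11 (9 and 2) and voom 7 (5 and 2). Of all genes these called 5.43%, 9.44% and 9.3%. The direction of calls over all genes depended on the tool: between batches 3 and 2 the share of calls that were higher was 33.8% with edgeR and TMM, 51.2% with RLE, 69.1% with DESeq2 and 75.4% with voom, and the median over all genes was -0.11, -0.02, 0.06 and 0.11. Between batches 3 and 1 these shares were 49.2%, 64.7%, 74.8% and 92.2%.

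Eif6, which keeps the large ribosomal subunit from joining too early (chromosome 2, 155819837 to 155826925), had footprints of 89.4, 72.2, 84.0 and 80.1 CPM in batch 1, 52.1, 52.2, 60.6 and 50.7 CPM in batch 2, and 114, 127, 156 and 134 CPM in batch 3. The 3 batches did not overlap. The ratio of Eif6 was 1.28, 1.15, 1.25 and 1.26, then 0.799, 0.732, 0.877 and 0.651, then 1.38, 1.71, 1.75 and 1.98, again without overlap. The change between batches 3 and 2 was 1.31 in footprints (SE 0.21, adjusted p = 2.92e-05, edgeR) and 1.06 in the ratio (SE 0.21, adjusted p = 0.00227, edgeR).

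Of the eIF3 subunits, Eif3a, the largest (chromosome 19, 60761116 to 60790693), went the other way from the subunits that rose. Its footprints were 628, 587, 601 and 670 CPM in batch 1, 587, 494, 628 and 548 CPM in batch 2, and 341, 350, 275 and 295 CPM in batch 3, where each culture lay under all others. The change was -1.01 against batch 1 (SE 0.16, adjusted p = 3.00e-05, edgeR) and -0.82 against batch 2 (SE 0.16, adjusted p = 2.41e-04, edgeR). Eif3i rose against batch 2 (1.18, SE 0.20, adjusted p = 4.92e-05, edgeR), as did Eif3b and Eif3k, so that 3 of 12 subunits were higher and 1 was lower.

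In the eIF4 group Eif4a1 total RNA was 920, 980, 990 and 1015 CPM in batch 1, 699, 749, 707 and 706 CPM in batch 2, and 1620, 1294, 1573 and 1230 CPM in batch 3, with no overlap between the batches. It rose by 1.00 between batches 2 and 3 in RNA (SE 0.11, adjusted p = 9.15e-06, edgeR) and by 0.81 in footprints (SE 0.13, adjusted p = 3.73e-05, edgeR). Eif4g3, a paralog of the scaffold, fell in batch 3 against batch 2 in RNA (-0.80, SE 0.12, adjusted p = 1.67e-04, edgeR) and in footprints (-1.04, SE 0.22, adjusted p = 7.61e-04, edgeR). Eif5b fell in footprints (-1.04, SE 0.19, adjusted p = 1.42e-04, edgeR). The 4E-binding protein genes were lower in RNA of batch 3 than of batch 2, Eif4ebp2 with -0.94 (SE 0.25, adjusted p = 0.00807, edgeR) and Eif4ebp1 with -0.43. Between batches 2 and 1 Eif4ebp1 RNA was higher (0.75, SE 0.15, adjusted p = 0.00462, edgeR; without WT4 adjusted p = 0.0537) and Eif4a2 RNA lower (-0.84, SE 0.14, adjusted p = 0.00159, edgeR).

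**Figure D5:**
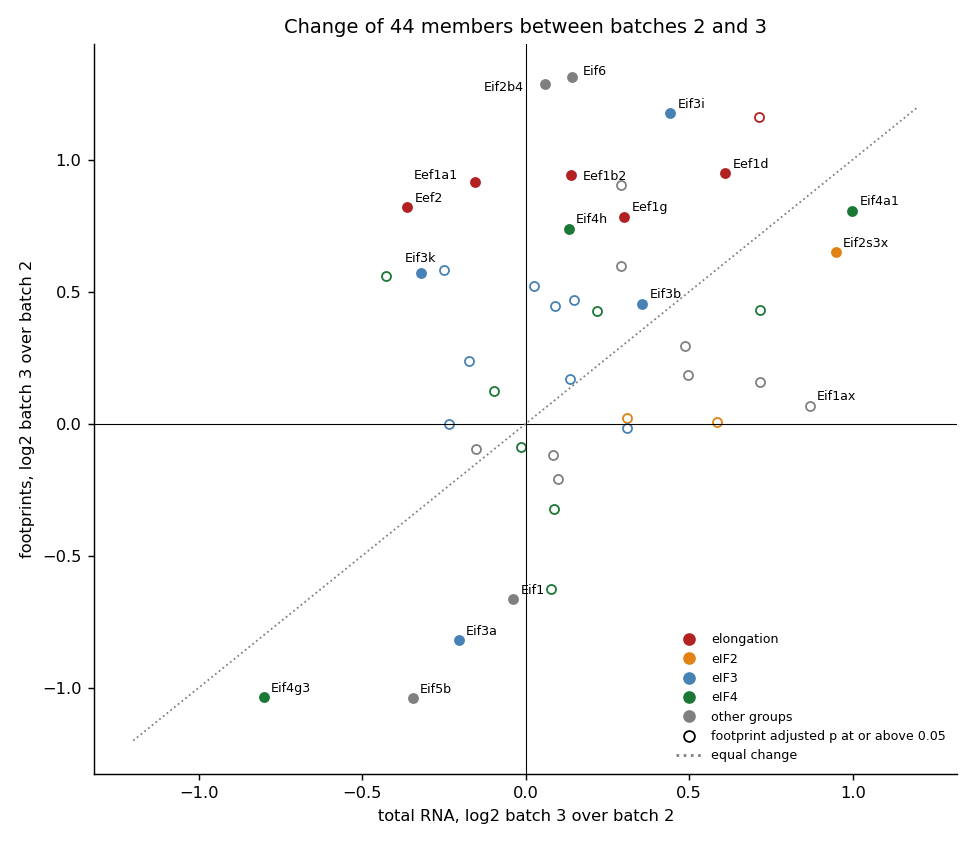
Log2 change between batches 3 and 2 in total RNA (horizontal axis) and footprints (vertical axis) of the 44 factors tested in both, coloured by group. All 6 elongation factors lie above the diagonal, with footprint changes of 0.78 to 0.95 in the 5 that were called, while Eif3a, Eif5b and Eif4g3 lie lowest.

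Beyond the 46, 51 other genes of the translation pathway were in the tables, of which 49, 37 and 49 were tested in total RNA, footprints and ratio. None was called between genotypes. Between footprints and RNA 33 of 49 differed, 11 higher and 22 lower (of all genes 67%, 24.7% and 42.4%). Between batches 2 and 1, 3 and 1, and 3 and 2 the calls in total RNA were 14 (4 higher), 25 (15 higher) and 24 (17 higher). Of all genes 23.5% (12.7% higher), 45.3% (23%) and 49.2% (24.7%) were called there. In the ratio the calls were 10 (8 higher), 1 (1 higher) and 5 (1 higher), against 10.3% (5.32%), 0.605% (0.298%) and 6.06% (2.05%) of all genes. In footprints they were 6 (4 higher), 4 (2 higher) and 7 (1 higher), against 15.4% (8%), 20.8% (9.54%) and 22.5% (10.9%) of all genes. The only higher one of the 7 was Gnb2l1, the ribosome-bound scaffold RACK1, with footprints of 351, 317, 349 and 316 CPM in batch 1, 356, 301, 333 and 406 CPM in batch 2, and 970, 975, 710 and 670 CPM in batch 3, above all others (1.28 against batch 2, adjusted p = 1.63e-07, edgeR). Eef1a2, the paralog of Eef1a1 known from muscle and neurons, was low in every culture but rose from 0.66 to 1.6 CPM in batch 2 to 11.4 to 19.9 CPM in batch 3 in total RNA (3.89, adjusted p = 5.72e-08, edgeR). Reads without a unique alignment were set apart by the counter. Whether reads shared with Eef1a1 play a part in these values was not tested.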

How the data were processed

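Footprint and total RNA libraries of 12 cultures were used as deposited. The authors' deposited values are raw counts of reads, in whole numbers for each gene symbol; the file names limit footprint counts to coding sequence, while the total RNA files are marked strict with no stated region. Per the submitters' processing notes, which give no role or order, the tools were HTSeq, Cufflinks 2.2.1, TopHat2 2.1.0, Bowtie 1.1.2, Trim Galore, DESeq2 and DESeq, and the build mm10; strand, annotation and how reads with several alignments were treated are not given in the sources used here. Reads without a unique alignment were 27.8% to 51.2% of total RNA and 45.6% to 80.1% of footprint files, and the counter's summary lines were kept out. The authors' deposited result tables hold, per the file headers, for each gene a mean count (a signal), the log2 change and its SE, the score of the test, and p-values before and after adjustment.

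Counts were fitted over all genes with edgeR 4.0.16 under R 4.3.3 (TMM factors within each kind of library, filterByExpr at a minimum of 10 counts, the quasi-likelihood F-test in its robust form, Benjamini-Hochberg adjustment over all genes tested, threshold 0.05), with 10942 genes in total RNA, 7208 in footprints and 10747 in the ratio. Genes absent from a footprint file were taken as 0; Pabpc4 and Eif4ebp2 failed the footprint filter. Models held genotype and batch; the ratio was tested as the terms by molecule in 1 model over 24 libraries, which takes both libraries of a culture as independent. SE is the log2 change over the square root of F. Levels are CPM with TMM factors. The scripts were tested on simulated data. Alternatives were limma 3.58.1 (voom, quality weights), DESeq2 1.42.0, RLE scaling, no filter, no batch term, replicate blocks, leaving out each culture, and the 4 cultures with at least 1000000 footprint counts; leaving out KO6 and WT6 or batch 3 was added after seeing the data. The footprint and RNA deviations of the same culture correlated at 0.0164 to 0.453, best with its own partner in 9 of 12 cultures, so the culture block is given beside the ratio; the numbers of KO and WT titles span batches and pair nothing.

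The genes and lists were chosen with earlier results of these data known. All 46 factors are accounted for. With a test, those named are, in each genotype comparison, the members with the smallest p, in each batch contrast the largest called changes, and in the ratio every elongation factor and the highest and lowest of each group; of other genes, Eif2s3y and the largest batch changes. Some further calls, named to complete a group or to follow 1 gene across measures, were chosen after their values were seen. Start windows and positions are from RefSeq tables of GRCm38.p6 and mm10; 35 of the 46 had a start entry.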

Additional observations from a re-analysis of the deposited data

Results flagged for a closer look

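Within each genotype, the highest or lowest of the 6 cultures was checked for a gap to the others that is wide against the whole range. Of 102 groups of values 12 stood out. The rule flags about 1 in 20 groups of independent, like values. These groups mix 3 batches of unequal depth and share genes and cultures, so the 12 cannot be set against that rate. The values come mostly from batch 3, where footprint depth was lowest.

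KO5 stood apart with the highest Eef1g footprints of the KO cultures (500.8 CPM), the highest Eef1g ratio (1.16), the highest median ratio of the TOP mRNAs (1.14) and the highest of the eIF4 group (1.04). KO6, with 90773 footprint counts, stood apart in Eef2k footprints (31.8 CPM, from 3 counts) and ratio (1.19). It also had the highest median ratio of eIF2B (3.31, from 4 to 8 footprint counts per gene) and the lowest of the eIF5 and eIF6 group (1.40). WT6, with 29561 footprint counts, had the highest Eef1a1 ratio (0.576) and the lowest Eef1g ratio (0.386) of the WT cultures. WT4 had the highest Eef2 total RNA of the WT cultures (3084 CPM), and KO1 the highest Apobec1 footprints of the KO cultures (24.4 CPM), still under every WT culture.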

How the results depend on the processing

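The limits are the footprint depth of WT6 and KO6, the uneven spread of genotypes over batches, and counted regions that may differ between both kinds of library. Of 1545 values of single genes under alternatives, 1436 kept their direction and side of the threshold, 99 lost a call, 5 gained one and 5 reversed. The count of factors whose ratio differed from 1 was 35 to 38 under all alternatives, and 36 to 38 when each culture was left out. Of all genes 39.7% (no filter) to 69.5% (culture block) differed under the alternatives. Between genotypes the count stayed at 0 for each culture left out in total RNA, footprints and ratio; over the cultures with at least 1000000 footprint counts it was 9 in total RNA, 5 in footprints and 0 in the ratio, where 24.8%, 14.5% and 0.0185% of all genes were called, from fits with 1 residual degree of freedom in total RNA and footprints and 2 in the ratio. With the number of the titles as a replicate block, 0 factors were called between genotypes in total RNA and footprints. Reversed values were Eif3h total RNA with no batch term (0.0113) and with the replicate block of numbers (0.0137), Eef2k footprints with no batch term (-0.15), and over the deeper cultures the ratios of Eif4h (-0.0486) and Eif2b5 (-0.00605); the cause was not tested.

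Between batches, with each culture left out, the calls in total RNA were 5 to 13 (batch 2 minus 1, with 5 without WT4), 14 to 19 (3 minus 1) and 17 to 25 (3 minus 2). Of all genes 12.2% (without WT4) to 27.5%, 38.7% to 47.8% and 37.9% to 48.9% were called in the same fits. In footprints the calls were 3 to 8 (2 minus 1), 9 to 15 (3 minus 1) and 11 to 21 (3 minus 2, with 11 without KO5). Between batches 2 and 1 they were 5 without KO1 or KO3, 4 without WT2 and 3 without WT3, KO2 or WT4. Of all genes 8.72% (without WT4) to 15.4%, 12.8% to 23.2% and 12.5% (without KO5) to 23.9% were called in the same fits. In the ratio the calls were 1 to 5 (2 minus 1), 0 to 1 (3 minus 1) and 4 to 9 (3 minus 2, with 4 without KO5). Between batches 2 and 1 they were 1 without KO1 or WT4, 2 without WT2 and 3 without WT3, KO2 or KO4. Of all genes 3.52% (without WT4) to 12.7%, 0.0926% to 0.769% and 2.1% (without KO5) to 6.06% were called in the same fits. For the ratio between batches 2 and 1, DESeq2 gave 10, no filter 3 and the culture replicate block 12 (of all genes 14.7%, 5.48% and 22.1%). For batches 3 and 1, DESeq2 gave 3, voom 2 and the replicate block 3 (of all genes 1.44%, 3.2% and 1.97%). RLE, no filter and leaving out KO6 and WT6 each gave 0 there (of all genes 0.633%, 0.478% and 0.669%). For batches 3 and 2 the replicate block gave 15 (of all genes 11.5%). Fewer samples or genes tested are part of how several alternatives are made; otherwise the cause was not tested.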
